A study of Mus musculus with 8 samples.

Results

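The 40 genes described here act in DNA replication and S phase, and were chosen by symbol, as 40 names given with the topic. All 40 were found among the 54532 genes of the deposited count table. The tumors were 4T1-FLuc, a luciferase-carrying line of mouse triple-negative breast cancer, grown under the skin of immunocompetent female BALB/cJ mice that were 6 weeks old when injected. The control group held 4 tumors treated with saline (the treatment label calls it PBS). The treated group held 4 tumors treated with mAb-DXd/IMQ, a humanized antibody against CD276 that carries DXd, a topoisomerase I inhibitor, and IMQ, an imidazoquinoline agonist of Toll-like receptors, in 5 courses of 16 mg/kg with 4 days from dose to dose. Tumors were taken at the endpoint and sequenced as bulk polyadenylated RNA. All tumors came from 1 cell line, and bulk RNA also holds the RNA of host cells. By the paper's account, treated tumors were on average far smaller than saline tumors by then, and stained sections showed widespread tumor cell death. The comparison asks how RNA of the tumors left after treatment differed from that of saline tumors. The part that tumor size or cell death had in the values was not tested.

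Replication begins in G1, when the origin recognition complex, Cdc6 and Cdt1 load the Mcm2 to Mcm7 helicase onto DNA. At the start of S phase, Mcm10, Cdc45 and the GINS complex turn the loaded helicase into a moving fork. Primase and polymerase alpha then lay down primers, the Rfc clamp loader places the Pcna clamp, polymerases delta and epsilon extend, and Fen1 and Lig1 join the lagging strand. E2F factors, held back by Rb1, switch on many of these genes as cells pass from G1 into S. A topoisomerase I inhibitor traps the enzyme on DNA, and replication forks that meet the trapped enzyme can break.

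Total counts were 49398150, 45019927, 56388627 and 69582375 in saline tumors 1 to 4 and 51625237, 46196237, 42965317 and 34591912 in mAb-DXd/IMQ tumors 1 to 4 (two-sided exact permutation test, p = 0.171). The 40 genes held 0.256, 0.214, 0.269 and 0.220% of these counts in the saline tumors and 0.291, 0.251, 0.296 and 0.246% in the mAb-DXd/IMQ tumors, so the groups overlapped. A floor of 3 counts was worth between 0.0431 and 0.0867 CPM (a gene's share of a tumor's counts scaled to a common total, with TMM normalization factors everywhere but at this floor), and it covers counting error only. The labelled tumor type was checked against epithelial markers: Epcam was at 374 ± 121 CPM (SD, n = 4) in saline tumors and at 508 ± 181 CPM in mAb-DXd/IMQ tumors, and Krt8 at 654 ± 35.6 and 658 ± 165 CPM. Of the receptors that triple-negative tumors are typed by, Pgr was at 0.367 ± 0.281 and 0.578 ± 0.191 CPM, while RNA of Esr1 (19.1 ± 1.14 and 15.7 ± 1.597 CPM) and Erbb2 (102.2 ± 19.7 and 100.9 ± 14.1 CPM) was present.

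All 40 genes had enough counts to be tested, and 1 of them, Orc1, rose past both thresholds: an FDR (adjusted p) below 0.05, with a log2 fold change beyond 0.58 either way. Over all 18511 genes tested by edgeR's quasi-likelihood test, 101 (0.546%) were higher and 96 (0.519%) lower past these thresholds; with upper quartile scaling in place of TMM the split was 145 and 73. The total of 197 became 111, 10 and 11 without saline tumors 2, 3 and 4, and 76, 88 and 12 without mAb-DXd/IMQ tumors 2, 3 and 4. In simulated counts with the same design, 4.17% of genes given a log2 change of 0.58 and 62.5% of those given 1 passed. These counts were drawn for each gene on its own, without shifts that genes of a tumor share. The shares therefore need not hold for the real tumors. None of the 40 was lower past them, and at an unadjusted p under 0.05, 9 were higher (Orc1, Cdc6, Mcm10, Rfc2, Rfc4, Rfc5, Prim1, Rpa2 and Tyms) and 1 was lower (Pola1), against 9.13% and 9.79% of all tested genes. Without saline tumor 2 the 9 became 3, and without saline tumor 4 they became 5. All mAb-DXd/IMQ tumors were above all saline tumors for 5 of the 40 (Orc1, Mcm10, Rfc2, Prim1 and Rpa2) and below them for 0, where the shares over all tested genes were 5.97% and 7.1%.

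Most of the 40 lay slightly above 0. The fitted log2 fold change was above 0 for 35 of 40, against 52.6% of all tested genes, and the median was 0.18 against 0.022. Over all 18511 genes, log2 fold change ran against gene length (Spearman rho -0.21, and -0.034 once an offset for length was fitted), and the cause was not tested. With this offset, 34 of 40 were above 0 and the median was 0.12, against -0.012 over all genes. The smallest and largest log2 fold changes were -0.40 (Pola1) and 0.91 (Orc1). In bulk tumors, fewer cells of a type and less RNA per cell cannot be told apart.

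**Figure D1:**
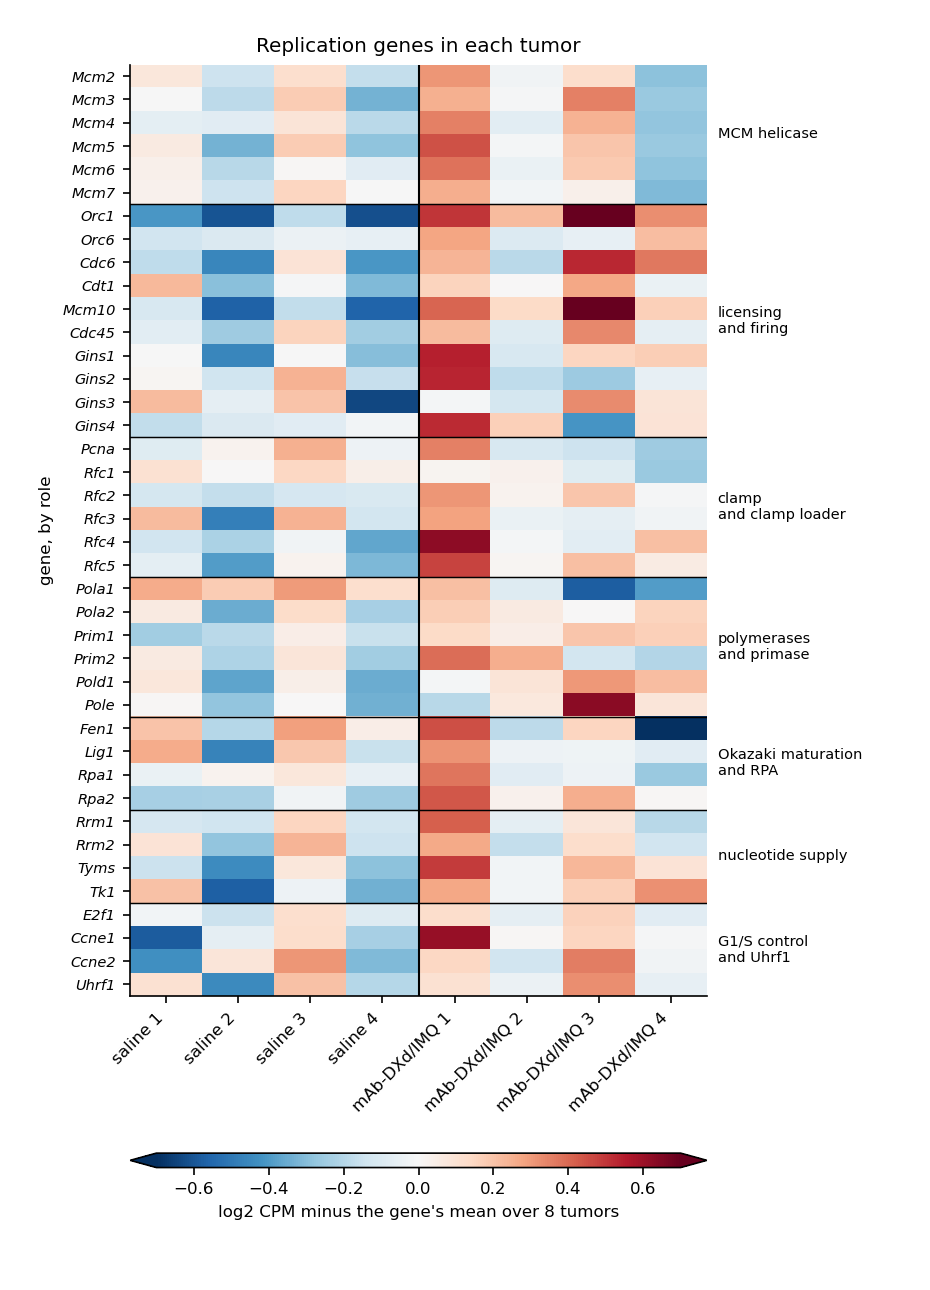
Each row is 1 of the 40 genes, ordered by role, and each column is 1 tumor; color gives the gene's log2 CPM minus its mean over the 8 tumors, with values beyond 0.7 in either direction drawn at the end of the scale. Columns mAb-DXd/IMQ 1 and 3 are the reddest, saline columns 2 and 4 the bluest, and Pola1 runs the other way from its neighbors.

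The spread between tumors of 1 group was as large as this shift. The mean log2 CPM over the 40 genes was 5.47, 5.26, 5.59 and 5.28 in saline tumors 1 to 4 and 5.80, 5.47, 5.64 and 5.45 in mAb-DXd/IMQ tumors 1 to 4. The group means were 5.40 ± 0.16 and 5.59 ± 0.16 (SD, n = 4), 0.19 apart, and the groups overlapped, since saline tumor 3 was above mAb-DXd/IMQ tumors 2 and 4. For 24 of the 40 genes the highest value of all 8 tumors was in mAb-DXd/IMQ tumor 1, for 13 in mAb-DXd/IMQ tumor 3, for 1 in mAb-DXd/IMQ tumor 4 and for 2 in saline tumor 3. The lowest value was in saline tumor 2 for 16 genes, in mAb-DXd/IMQ tumor 4 for 9, in saline tumor 4 for 8, in saline tumor 1 for 4 and in mAb-DXd/IMQ tumor 3 for 3. Lowest values occurred in tumors of both groups, as the color map by tumor shows. The median coefficient of variation of the 40 genes was 13.6% among saline tumors and 16.5% among mAb-DXd/IMQ tumors, against 15.8% and 20.9% over all tested genes.

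Of the genes that license origins, Orc1, the largest subunit of the origin recognition complex, rose. Orc1 (ENSMUSG00000028587, chr4:108579423-108614833, plus strand, GRCm38) was at 6.24, 5.44, 7.31 and 5.40 CPM in saline tumors 1 to 4 and at 11.7, 9.64, 14.1 and 10.4 CPM in mAb-DXd/IMQ tumors 1 to 4. Every mAb-DXd/IMQ tumor was above every saline tumor, and tumor 3 was the highest of each group. The log2 fold change was 0.91 ± 0.19 (SE; edgeR, adjusted p = 0.0442). The call was lost with the gene length offset (edgeR, adjusted p = 0.0675) and with any 1 tumor left out: edgeR's adjusted p was 0.0634, 0.0895, 0.0839 and 0.153 without saline tumors 1 to 4 and 0.0606, 0.0661, 0.0751 and 0.0935 without mAb-DXd/IMQ tumors 1 to 4. Over these settings its log2 fold change stayed between 0.79 and 1.01. Of its exon bases, 10.8% overlap Gm12743 on the opposite strand, which held 255 counts against 3358 for Orc1.

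Cdc6, the ATPase that joins the origin recognition complex to load the helicase, was at 19.5, 16.1, 23.6 and 16.7 CPM in saline tumors and at 26.1, 19.3, 31.8 and 28.5 CPM in mAb-DXd/IMQ tumors. Only mAb-DXd/IMQ tumor 2 fell within the saline range, and the log2 fold change of 0.48 ± 0.18 did not pass (edgeR, adjusted p = 0.177). Cdt1, its partner in loading, was at 95.2, 66.3, 80.8 and 65.6 CPM and at 90.5, 81.4, 98.0 and 78.8 CPM. The groups overlapped (log2 fold change 0.18 ± 0.14). Orc6, the smallest subunit, lay between 44.5 and 47.5 CPM in saline tumors and between 45.8 and 59.3 CPM in mAb-DXd/IMQ tumors. Per base of deposited gene length (TPM), Orc1 stood to Orc6 as 0.0996, 0.0847, 0.109 and 0.0817 in saline tumors and as 0.140, 0.149, 0.213 and 0.130 in mAb-DXd/IMQ tumors. That ratio, looked at after the values of both genes were known and not tested, was higher in each mAb-DXd/IMQ tumor than in each saline tumor.

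Mcm10, which binds the loaded helicase and is needed for it to fire, came next in size. Mcm10 (ENSMUSG00000026669, chr2:4989714-5012791, minus strand) was at 31.7, 23.2, 30.4 and 23.3 CPM in saline tumors 1 to 4 and at 45.5, 37.7, 56.0 and 38.6 CPM in mAb-DXd/IMQ tumors 1 to 4. The groups did not overlap, and saline tumors 2 and 4 were the lowest of all. The log2 fold change of 0.71 ± 0.16 just missed the FDR threshold (edgeR, adjusted p = 0.0552; 0.00414 to 0.0874 over the other fits with 8 tumors). It passed with DESeq2 (adjusted p = 0.00414), with upper quartile scaling (edgeR, adjusted p = 0.0489), without the filter on low counts (edgeR, adjusted p = 0.0335) and with a filter at a mean of 1 CPM (edgeR, adjusted p = 0.0495), and its adjusted p was between 0.0563 and 0.173 with 1 tumor left out. Relative to Mcm2 per gene length, Mcm10 was at 0.278, 0.239, 0.261 and 0.243 in saline tumors and at 0.341, 0.356, 0.477 and 0.436 in mAb-DXd/IMQ tumors, a ratio that was also not tested.

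The other helicase activators did not separate. Cdc45, a subunit of the active helicase, was at 27.4 ± 3.73 and 31.7 ± 4.64 CPM (SD, n = 4), a log2 fold change of 0.21 ± 0.14. Of the 4 GINS subunits, Gins1 had a log2 fold change of 0.38 ± 0.18 (edgeR, adjusted p = 0.278), Gins4 of 0.22 ± 0.17, Gins3 of 0.11 ± 0.20 and Gins2 of 0.050 ± 0.18. In mAb-DXd/IMQ tumor 1, Gins2 (47.5 CPM) and Gins4 (57.0 CPM) were above every other tumor, whereas mAb-DXd/IMQ tumor 3 had the lowest values of both (27.6 and 29.8 CPM). Gins1 (19.3 CPM) was also highest in tumor 1 and Gins3 (15.4 CPM) in tumor 3. All 10 licensing and firing genes had a log2 fold change above 0, with a median of 0.21. Reads of Gins2 are uncertain, since 67.3% of its exon bases overlap exons of Gse1 on the opposite strand and the strand setting of the counting was not given in the sources used here.

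**Figure D2:**
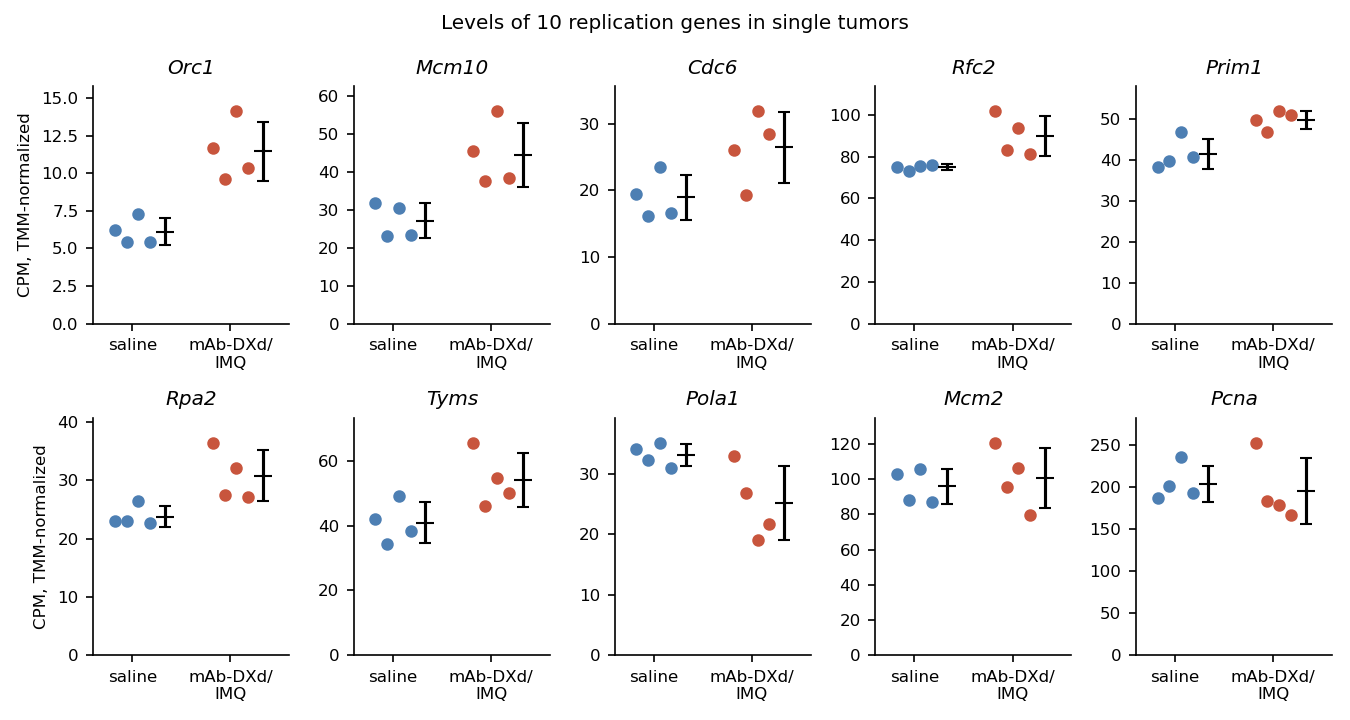
Each panel is 1 gene and each point 1 tumor, with CPM on an axis from 0 and the group mean ± SD (n = 4) beside the points, saline in blue and mAb-DXd/IMQ in red. The groups are apart for Orc1, Mcm10, Rfc2, Prim1 and Rpa2, and overlap for Cdc6, Tyms, Pola1, Mcm2 and Pcna.

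The promoters of these genes were searched for 3 motifs of cell cycle genes. RefSeq promoters (GRCm38.p6, 250 bases before to 50 after the start) were matched by symbol for 32 of the 40 genes; Mcm4, Gins1, Gins2, Gins4, Rfc2, Prim2, Pole and Ccne2 had no entry. An E2F site, spelled TTTCCCGC, TTTCGCGC, TTTGCCGC or TTTGGCGC on either strand, was in 11 of 32 (34.4%) and in 2.26% of all 32851 promoters. The 11 were those of Mcm3, Mcm5, Mcm6, Mcm7, Orc1, Cdc6, Cdt1, Gins3, Rfc3, Pola1 and Pold1. A CCAAT box, bound by NF-Y, was in 20 of 32 (62.5%) and in 37.4% of all promoters, and the CHR element TTTGAA in 4 of 32 (12.5%) and in 17.9%. Both an E2F site and a CCAAT box were in 8 of 32 (25%) and in 0.962% of all promoters. The median log2 fold change was 0.17 for the 11 genes with an E2F site in this window and 0.18 for the 21 without, and 0.13 for the 20 with a CCAAT box and 0.32 for the 12 without; neither split was tested. The 32 genes counted with 1 promoter each, the one nearest the deposited start, while the 32851 are all entries of the promoter set. Since the 40 were chosen as replication genes, many of them switched on by E2F factors, the share of E2F sites says nothing about the treatment. A match is a description of letters and does not show binding.

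The promoters of Orc1, Mcm10 and Pola1 are shown since these genes had the largest fold changes in either direction; capitals mark E2F sites and CCAAT boxes (ATTGG on the printed strand where the box lies on the other). The stretches of Orc1 (chr4:108579337-108579422, plus strand), Mcm10 (chr2:5012792-5012941, minus strand) and Pola1 (chrX:93632156-93632305, minus strand) lie upstream of the gene in GRCm38 and overlap no annotated exon.
Orc1: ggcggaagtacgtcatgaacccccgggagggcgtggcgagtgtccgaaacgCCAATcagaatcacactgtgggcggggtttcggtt
Mcm10: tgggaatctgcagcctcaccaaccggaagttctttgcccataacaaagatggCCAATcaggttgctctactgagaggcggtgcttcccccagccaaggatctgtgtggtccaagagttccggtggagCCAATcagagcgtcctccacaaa
Pola1: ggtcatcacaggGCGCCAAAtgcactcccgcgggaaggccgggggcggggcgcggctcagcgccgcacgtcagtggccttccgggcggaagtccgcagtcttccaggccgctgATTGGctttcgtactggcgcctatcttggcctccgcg
The Mcm10 stretch holds 2 CCAAT boxes and no E2F site of these spellings, while that of Pola1, the gene with the lowest fold change, holds both kinds.

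The E2F site of Orc1 starts at -27 from the RefSeq start and falls into the first exon as the deposited coordinates place it (chr4:108579416-108579445, plus strand). It is set beside those of Mcm5 (chr8:75109345-75109374, plus strand, intergenic), Mcm6 (chr1:128359797-128359826, minus strand, intergenic) and Cdc6 (chr11:98908002-98908031, plus strand, in an intron as annotated), again with the site in capitals.
Orc1: ttcggttagtgGCGCGAAAagttttctcct
Mcm5: gcgccaagaacTTTCGCGCCAAAacgtcca
Mcm6: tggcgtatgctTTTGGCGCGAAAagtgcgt
Cdc6: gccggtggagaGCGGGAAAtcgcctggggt
In Mcm5 and Mcm6, a site on 1 strand overlaps a site on the other. All of these genes except Orc1 were below the thresholds.

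The 6 helicase subunits Mcm2 to Mcm7 showed no separation between the groups. Mcm2 was at 103.1, 88.1, 105.6 and 86.9 CPM in saline tumors 1 to 4 and at 120.7, 95.7, 106.2 and 79.9 CPM in mAb-DXd/IMQ tumors 1 to 4. Its lowest and its highest value were both in mAb-DXd/IMQ tumors (log2 fold change 0.069 ± 0.14). Mcm5 was at 128.2, 97.5, 138.9 and 101.1 CPM and at 167.4, 121.8, 140.7 and 102.7 CPM, with a log2 fold change of 0.19 ± 0.17 (edgeR, adjusted p = 0.573). Mcm3 was at 108.6, 95.9, 123.2 and 86.5 CPM and at 129.0, 108.0, 139.0 and 90.8 CPM, with one of 0.17 ± 0.15 (edgeR, adjusted p = 0.586). In each group, tumors 1 and 3 were above tumors 2 and 4 for Mcm2, Mcm3 and Mcm5. Mcm4 (0.14 ± 0.14), Mcm6 (0.13 ± 0.14) and Mcm7 (-0.0094 ± 0.13) completed the ring, whose median log2 fold change was 0.14. The sign of Mcm7 turned with the scaling, to 0.035 with upper quartile factors and 0.017 with library size alone.

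**Figure D3:**
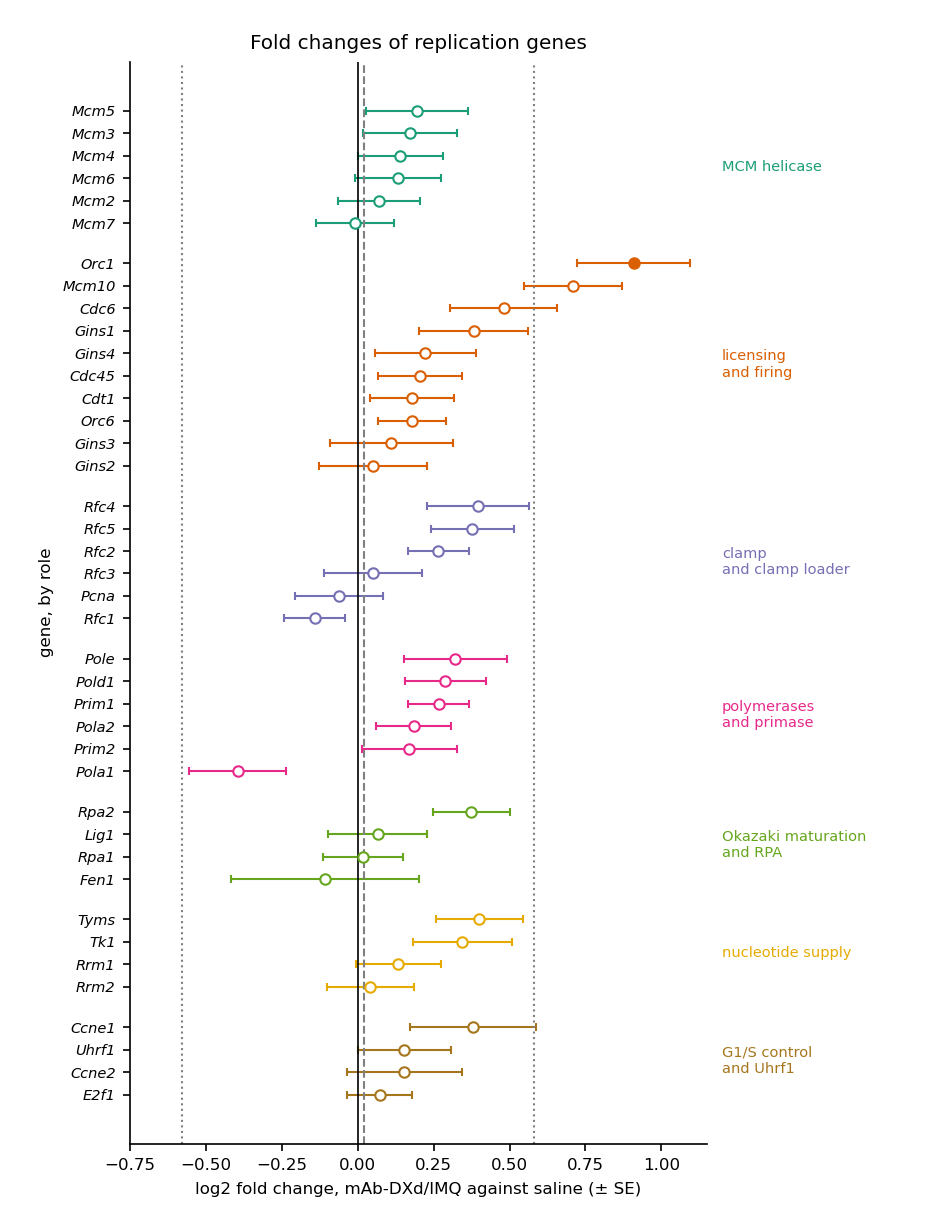
Points are log2 fold changes of the 40 genes between mAb-DXd/IMQ and saline tumors with their standard errors, colored by role; a filled point passed both thresholds. The dashed line is the median of all tested genes (0.022) and the dotted lines are the fold change threshold of 0.58 in either direction; Orc1 is filled, and Pola1 is the lowest point.

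Of the 5 clamp loader subunits, none passed the thresholds. Rfc2 was at 75.2, 72.8, 75.3 and 75.98 CPM in saline tumors 1 to 4 and at 101.6, 83.3, 93.5 and 81.3 CPM in mAb-DXd/IMQ tumors 1 to 4. The saline tumors were tightly grouped and all treated tumors lay above them, yet the log2 fold change of 0.27 ± 0.10 did not pass (edgeR, adjusted p = 0.192). Rfc5 was at 48.1, 38.6, 51.3 and 40.6 CPM and at 70.1, 51.0, 58.5 and 52.5 CPM, and mAb-DXd/IMQ tumor 2 overlapped saline tumor 3 (log2 fold change 0.38 ± 0.14, edgeR, adjusted p = 0.169). Rfc4 had a log2 fold change of 0.40 ± 0.17 and Rfc3 of 0.051 ± 0.16. Rfc1, the large subunit, was at 84.3 ± 3.66 and 76.4 ± 6.89 CPM (SD, n = 4), with a log2 fold change of -0.14 ± 0.10 (edgeR, adjusted p = 0.477). On the opposite strand, exons of Eif4a2 (238045 counts) overlap 12.7% of the exon bases of Rfc4 (7769 counts), those of Lat2 (6475 counts) 15.1% of Rfc2 (32328 counts) and those of Wsb2 (34940 counts) 10.7% of Rfc5 (20048 counts).

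Pcna, the clamp that holds polymerases on DNA, was at 186.4, 200.5, 234.9 and 192.5 CPM in saline tumors and at 252.1, 182.9, 178.7 and 166.0 CPM in mAb-DXd/IMQ tumors. The first mAb-DXd/IMQ tumor was the highest of all and the other 3 were below every saline tumor. The log2 fold change was -0.062 ± 0.15 (edgeR, adjusted p = 0.860), and without saline tumor 3 or mAb-DXd/IMQ tumor 4 it was 0.011 or 0.015.

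In the polymerase alpha complex, which primes both strands, none of the 4 subunits passed the thresholds. Pola1, the catalytic subunit (ENSMUSG00000006678, chrX:93304767-93632155, minus strand), was at 34.1, 32.3, 35.1 and 30.9 CPM in saline tumors 1 to 4 and at 32.98, 26.8, 19.1 and 21.7 CPM in mAb-DXd/IMQ tumors 1 to 4. Of the treated tumors, 3 were below every saline tumor and tumor 1 lay among them. The log2 fold change was -0.40 ± 0.16 and did not pass (edgeR, adjusted p = 0.216); it was -0.31 with the gene length offset (edgeR, adjusted p = 0.432), and its adjusted p was between 0.0635 and 0.399 with 1 tumor left out.

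Pola2, the accessory subunit, was at 65.9, 49.7, 69.1 and 53.8 CPM and at 71.4, 66.0, 63.3 and 70.3 CPM, a log2 fold change of 0.18 ± 0.12. Per gene length, Pola1 stood to Pola2 as 0.169, 0.212, 0.166 and 0.187 in saline tumors and as 0.151, 0.132, 0.0984 and 0.101 in mAb-DXd/IMQ tumors. Each treated tumor had a lower ratio than each saline tumor, a comparison made after the values were seen and not tested. Of 5 such ratios looked at, the other 2, Prim1 to Prim2 and Cdc6 to Cdt1, overlapped between the groups. Prim1, the catalytic primase, was at 38.3, 39.7, 46.7 and 40.6 CPM and at 49.5, 46.8, 51.7 and 50.8 CPM. Its groups were apart by the small gap between saline tumor 3 and mAb-DXd/IMQ tumor 2 (log2 fold change 0.27 ± 0.10, edgeR, adjusted p = 0.186). Prim2, the other primase subunit, had a log2 fold change of 0.17 ± 0.16, Pold1, the catalytic subunit of polymerase delta, of 0.29 ± 0.13 (edgeR, adjusted p = 0.272), and Pole, that of polymerase epsilon, of 0.32 ± 0.17 (edgeR, adjusted p = 0.334).

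Among the genes of strand joining and single-strand binding, Rpa2 stood apart from the other 3. Rpa2, the middle subunit of the protein that coats single-stranded DNA, was at 22.9, 22.95, 26.4 and 22.7 CPM in saline tumors 1 to 4 and at 36.4, 27.5, 32.1 and 27.1 CPM in mAb-DXd/IMQ tumors 1 to 4. All treated tumors were above all saline tumors, and the log2 fold change of 0.37 ± 0.13 did not pass (edgeR, adjusted p = 0.145). Rpa1, the large subunit, was level at 82.8 ± 3.69 and 83.8 ± 16.4 CPM (SD, n = 4; log2 fold change 0.017 ± 0.13). Lig1, the ligase of the lagging strand, was at 98.5, 59.4, 93.5 and 73.8 CPM and at 102.0, 80.2, 80.3 and 77.9 CPM. The treated tumors lay inside or just above the saline range (0.066 ± 0.16; edgeR, adjusted p = 0.870). Fen1, the flap nuclease, held 643 counts over all 8 tumors, 1.66 ± 0.237 and 1.54 ± 0.510 CPM. Of its exon bases, 78.8% overlap Gm10143 on the opposite strand, which held 322 counts, and 5.37% overlap Tmem258, also on the opposite strand, which held 31180; how these overlaps bear on the Fen1 count was not tested.

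All 4 genes of nucleotide supply had log2 fold changes above 0, with a median of 0.24. Tyms, which makes thymidylate, was at 42.0, 34.3, 49.3 and 38.2 CPM in saline tumors 1 to 4 and at 65.6, 46.1, 54.7 and 49.9 CPM in mAb-DXd/IMQ tumors 1 to 4. Only mAb-DXd/IMQ tumor 2 was within the saline range (log2 fold change 0.40 ± 0.14, edgeR, adjusted p = 0.167). Tk1, the thymidine kinase of S phase, was at 153.2, 89.2, 129.8 and 105.2 CPM and at 160.3, 131.0, 149.4 and 165.5 CPM. Saline tumor 1 reached into the treated range (0.34 ± 0.16, edgeR, adjusted p = 0.279). Of ribonucleotide reductase, the small subunit Rrm2 was at 76.9, 59.4, 84.9 and 65.1 CPM and at 86.6, 64.1, 78.3 and 65.7 CPM, and the large subunit Rrm1 at 94.8 ± 9.72 and 104.0 ± 19.8 CPM (SD, n = 4). The groups overlapped for both, with log2 fold changes of 0.042 ± 0.14 for Rrm2, which was -0.037 with the gene length offset, and 0.13 ± 0.14 for Rrm1.

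None of the 4 regulators of the G1 to S passage and of methylation reached an unadjusted p under 0.05. E2f1, the activating factor, was at 37.4, 34.3, 41.2 and 35.6 CPM in saline tumors 1 to 4 and at 41.3, 36.4, 42.5 and 36.004 CPM in mAb-DXd/IMQ tumors 1 to 4, and the groups overlapped (log2 fold change 0.072 ± 0.11). Ccne1, cyclin E1, was at 6.204, 8.89, 10.1 and 7.93 CPM and at 14.2, 9.36, 10.3 and 9.25 CPM. Saline tumor 3 lay within the treated range, and mAb-DXd/IMQ tumor 1 was well above the other tumors (0.38 ± 0.21, edgeR, adjusted p = 0.351). Ccne2, cyclin E2, had a log2 fold change of 0.15 ± 0.19. Uhrf1, which carries DNA methylation across the fork, was at 127.1, 86.7, 135.7 and 102.5 CPM and at 127.0, 114.7, 147.7 and 113.4 CPM (0.15 ± 0.15, edgeR, adjusted p = 0.629).

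Levels per gene length spanned more than 2 orders of magnitude among the 40 genes in saline tumors, but only with Fen1 included. Of the exon bases of Fen1, 78.8% overlap a gene on the opposite strand, and how this bears on its level was not tested. Pcna was highest at 241.2 ± 23.3 TPM in saline tumors and 226.0 ± 29.2 TPM in mAb-DXd/IMQ tumors (SD, n = 4), ahead of Mcm6 at 103.7 ± 9.15 and 111.9 ± 21.3 TPM. Mcm7, Mcm5, Mcm3 and Gins4 followed between 78.5 and 84.3 TPM in saline tumors, and they did not differ beyond their spread. Of the helicase ring, Mcm2 was lowest at 39.3 ± 4.55 TPM in saline tumors. Licensing and firing genes lay at both ends of the order. Gins4, Cdt1 (69.98 ± 14.4 TPM) and Orc6 (53.1 ± 0.990 TPM) were among the more abundant, whereas Cdc6 was at 10.3 ± 1.88 TPM, Mcm10 at 10.1 ± 1.86 TPM and Orc1 at 4.99 ± 0.752 TPM in saline tumors. In mAb-DXd/IMQ tumors these were at 14.3 ± 3.77, 16.4 ± 4.40 and 9.32 ± 2.31 TPM. Fen1 was lowest in both groups, at 1.95 ± 0.298 and 1.77 ± 0.553 TPM, and in mAb-DXd/IMQ tumors Pola1, at 7.90 ± 1.26 TPM, also had a mean below that of Orc1.

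**Figure D4:**
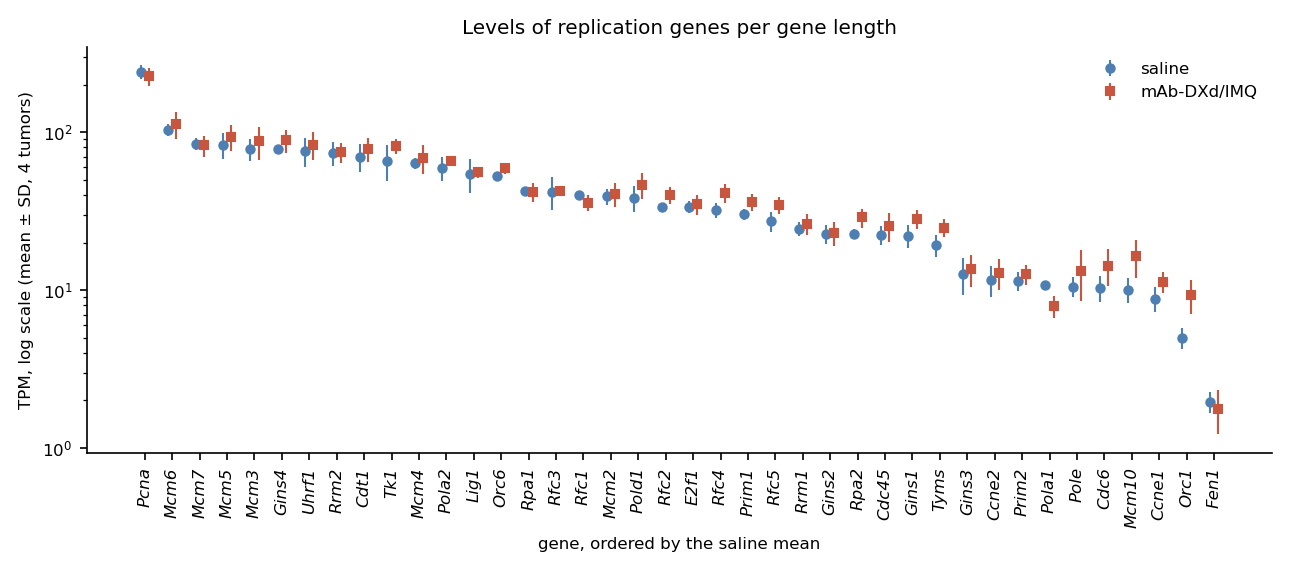
Mean TPM ± SD (4 tumors per group) of the 40 genes on a log axis, ordered by the saline mean, with saline as circles and mAb-DXd/IMQ as squares. Pcna is highest and Fen1 lowest, and Orc1 moves from 4.99 to 9.32 TPM near the low end.

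The 40 genes were spread over 14 chromosomes, with 7 on chromosome 5 and 6 on chromosome 8, which hold 6.64% and 5.24% of all tested genes. Their median deposited gene length was 3930.5 bases, against 3516 over all tested genes. Their promoters had a median GC content of 58.0%, against 52.7% over all promoters.

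Other genes of replication and the cell cycle, in 6 lists with 134 genes, had fold changes of similar size. Their median log2 fold change was 0.23, with 110 of 134 above 0, and 1 gene rose and 1 fell past both thresholds, where the shares over all tested genes were 0.546% and 0.519%. At an unadjusted p under 0.05, 43 of 134 were higher and 7 lower (9.13% and 9.79% of all tested genes). Groups were apart upward for 26 and downward for 6 (5.97% and 7.1%). Of the 6 lists, only other fork and chromatin genes had a mean log2 CPM that separated the groups (5.19 ± 0.083 and 5.40 ± 0.094, SD). The lists of other fork and chromatin genes (27 genes, median 0.26), other licensing and firing genes (15, median 0.19), other nucleotide supply genes (20, median 0.19), other G1/S control genes (30, median 0.14) and replication checkpoint genes (12, median 0.071) had 23, 12, 16, 21 and 8 genes above 0. In the mitosis list, 30 of 30 genes were above 0 (52.6% over all tested genes), with a median of 0.32, 17 higher at an unadjusted p under 0.05 (9.13% over all tested genes) and 0 past the thresholds in the edgeR fit that gave these values, although Bub1 or Cenpf passed in other edgeR fits; Mki67 was at 0.22 ± 0.15 and Top2a at 0.27 ± 0.15. The strip plot of the lists shows this overlap with the 40 replication genes.

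**Figure D5:**
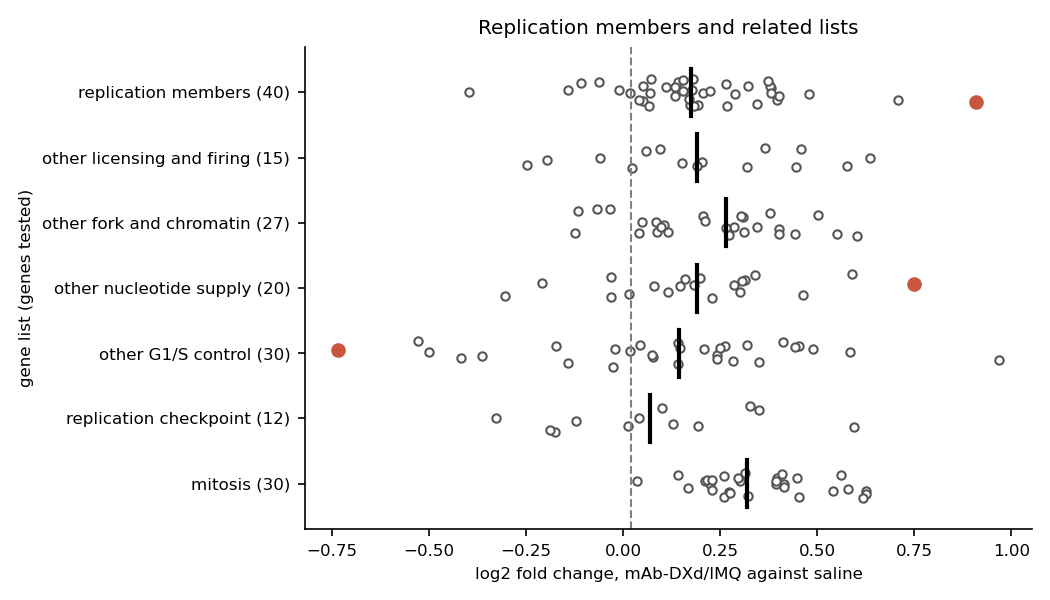
Each point is the log2 fold change of 1 gene between mAb-DXd/IMQ and saline tumors, by list, with the list's median as a black bar and the median of all tested genes (0.022) as a dashed line. Filled points passed both thresholds: Orc1 and Dctpp1 on the right and Rb1 on the left.

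Rb1, the pocket protein that holds E2F factors, fell. It was at 24.3, 37.1, 32.9 and 34.5 CPM in saline tumors 1 to 4 and at 20.3, 21.8, 16.2 and 19.1 CPM in mAb-DXd/IMQ tumors 1 to 4, and the groups did not overlap. The log2 fold change was -0.73 ± 0.15 (edgeR, adjusted p = 0.0458). On the opposite strand, exons of Rcbtb2 (22013 counts) overlap 8.11% of the exon bases of Rb1 (10461 counts), and those of Lpar6 (8686 counts) 6.78%. How these overlaps bear on the Rb1 count was not tested. Dctpp1, which clears modified cytidine nucleotides, rose from 23.6, 30.9, 34.9 and 27.4 CPM to 59.0, 41.5, 42.8 and 53.0 CPM, also with no overlap (0.75 ± 0.15, edgeR, adjusted p = 0.0450). With 1 tumor left out, the adjusted p of Dctpp1 was between 0.0587 and 0.153, and that of Rb1 between 0.0608 and 0.155 except without saline tumor 1, where it was 0.0294. With the gene length offset both missed the threshold (edgeR, adjusted p = 0.0709 for Rb1 and 0.108 for Dctpp1), as they did with limma voom (adjusted p = 0.0577 and 0.0502).

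No other named gene of these lists passed in the fit that gave the values above. In other fits, Bub1 passed with upper quartile factors, no filter, a filter at a mean of 1 CPM and DESeq2, Nasp with upper quartile factors and library size alone, Mcm8 and Chek1 with DESeq2, and Cenpf with the gene length offset and without saline tumor 1. Cdkn1a, an inhibitor of cyclin-dependent kinases, was at 40.7, 29.9, 29.3 and 40.1 CPM and at 62.2, 51.1, 45.5 and 50.9 CPM (log2 fold change 0.58 ± 0.15, edgeR, adjusted p = 0.0702). Nasp, a histone chaperone, was at 49.6, 45.7, 52.1 and 46.9 CPM and at 82.6, 60.4, 77.4 and 64.4 CPM (0.55 ± 0.12, edgeR, adjusted p = 0.0519). Neither gene's groups overlapped. In the list of other G1/S control genes, groups were apart for 4 genes that were higher in mAb-DXd/IMQ tumors (Cdkn1a, Ccnd3, Tfdp1 and Skp2) and for 4 that were lower (Rb1, Cdkn1b, Cdkn2c and Ccnd1), of 30 in the list (over all tested genes, 5.97% and 7.1%), all but Cdkn1a and Rb1 named after their values were seen. The inhibitors Cdkn1b and Cdkn2c were at -0.36 ± 0.11 and -0.50 ± 0.13 (edgeR, adjusted p = 0.106 and 0.0827), and the D cyclins Ccnd1, Ccnd2 and Ccnd3 at -0.53 ± 0.16, 0.45 ± 0.17 and 0.28 ± 0.10 (edgeR, adjusted p = 0.1096, 0.182 and 0.164). Other inhibitors of the list, also named after their values were seen, had overlapping groups. Cdkn2a (0.97 ± 0.60) and Cdkn2b (0.49 ± 0.46) were above 0, and Cdkn1c (-0.14 ± 0.48) was below. All 3 had few counts per tumor: 2 to 41 for Cdkn2a, 22 to 129 for Cdkn2b and 8 to 34 for Cdkn1c. In saline tumor 1, the 2 counts of Cdkn2a were below the floor of 3. Chek1, the checkpoint kinase that acts when forks stall, had a log2 fold change of 0.59 ± 0.17 (edgeR, adjusted p = 0.104) and Etaa1, which helps to activate its upstream kinase, of 0.33 ± 0.12. Shmt1, a serine hydroxymethyltransferase, was at 0.46 ± 0.11 (edgeR, adjusted p = 0.0591), the helicase Mcm8 at 0.64 ± 0.18 (edgeR, adjusted p = 0.0917), Donson, a helicase assembly factor, at 0.46 ± 0.14 and Timeless, a fork protector, at 0.40 ± 0.13. The kinase Bub1 (0.63 ± 0.14, edgeR, adjusted p = 0.0580) and Cenpf (0.58 ± 0.14), both of the kinetochore, and cyclin A2, Ccna2 (0.24 ± 0.17), were likewise above 0.

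Markers of other cells moved in the same comparison. Of 7 T cell genes, 7 were lower and 3 fell past the thresholds (Cd4, Cd8a and Cd2), as 0.519% of all tested genes did; their summed level was 60.5, 90.7, 87.5 and 78.4 CPM in saline tumors 1 to 4 and 45.5, 39.7, 24.2 and 36.9 CPM in mAb-DXd/IMQ tumors 1 to 4, and Cd8a was the most abundant per length. Of 6 neutrophil genes, 5 were tested, all lower, and 1, Csf3r, fell past the thresholds (0.519% of all tested genes); the sums were 225.4, 84.9, 92.4 and 125.2 CPM and 33.004, 49.4, 51.4 and 67.2 CPM, led by S100a9, with Ly6g at 0 counts in 2 tumors. The 3 T cell calls became 0 without saline tumor 3 or 4 or mAb-DXd/IMQ tumor 4, and the single neutrophil call became 0 with upper quartile factors, with library size alone and without saline tumor 1, 3 or 4 or mAb-DXd/IMQ tumor 2, 3 or 4. Both sums were lower in every treated tumor than in every saline tumor. Of 4 B cell genes, 2 were tested, both lower, with sums of 1.18, 2.30, 1.18 and 2.78 CPM and 1.13, 0.942, 0.786 and 0.899 CPM, led by Cd79b, and Ms4a1 was at 0 counts in 1 tumor.

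Of 10 tumor epithelium genes, 9 were higher and 0 passed in edgeR, with 1 higher and 1 lower at an unadjusted p under 0.05 (9.13% and 9.79% of all tested genes). Their summed level was 2944, 2167, 2999 and 2734 CPM in saline tumors and 4225, 3282, 2437 and 2497 CPM in mAb-DXd/IMQ tumors, led by Krt18, and none was at 0. The epithelial sum and the replication genes did not run in the same order: mAb-DXd/IMQ tumor 1 was highest and saline tumor 2 lowest in both, but mAb-DXd/IMQ tumor 3, with the next to lowest epithelial sum, had the next to highest mean of the 40 genes. All 7 macrophage genes were lower (median log2 fold change -0.36) and all 5 endothelium genes higher (median 0.56), 0 of them past the thresholds in edgeR, with 1 of each list at an unadjusted p under 0.05 (9.79% of all tested genes were lower and 9.13% higher at that p). Sums of macrophage, fibroblast, endothelium, skeletal muscle, adipocyte and epidermis markers overlapped between groups. The part that the mix of cells had in the values of the replication genes was not tested.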

How the data were processed

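The authors deposited whole-number read counts per gene for 8 tumors, without normalization, with a length for each gene. The submitters' notes name HISAT2, HISAT and TopHat2, without versions, and the build mm39, yet 98.3% of gene coordinates equal GENCODE M21 on GRCm38, which is used here. The labels do not say that the tumors came from separate mice. The paper gives 4 mice per group for the analyses after treatment, bulk RNA sequencing among them. The p-values measure spread between these samples.

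edgeR 4.0.16 in R 4.3.3 was used with filterByExpr (minimum count 10, minimum total 15), TMM factors and the quasi-likelihood F-test; adjusted p-values are Benjamini-Hochberg over 18511 genes, and SEs come from the F statistic. CPM are counts per 1e+06 counts, and TPM used the deposited lengths. Mean log2 CPM used a prior count of 2. Alternatives used limma 3.58.1, DESeq2 1.42.0, other scalings and filters, a replicate block, a spline offset for gene length, and each tumor left out.

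The 40 genes were fixed by symbol, while the members given in full and the other lists were chosen with earlier results of these data known. Given in full were members past both thresholds, the 2 with the smallest unadjusted p in each of 7 roles, the highest and lowest, and Mcm2, Pcna, Rrm2, E2f1, Ccne1, Cdc6 and Cdt1; named from other lists were genes past the thresholds, the 2 with the smallest p in each, and Cdkn1a, Chek1, Ccna2, Mki67 and Top2a. Pola2, Orc6 and GINS values were added after they were seen.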

Additional observations from a re-analysis of the deposited data

Results flagged for a closer look

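Of 138 sets of 4 tumors examined, 7 (5.07%) had 1 tumor far from the other 3. That share is about the 1 in 20 that chance gives, but it does not show that each of the 7 arose by chance. The ratio is the gap to the nearest tumor over the range. Saline tumor 3 was highest for Rpa2 (26.4 CPM, the others 22.7 to 22.95, ratio 0.927) and for Rrm1 (109.4 CPM, the others 89.3 to 90.7, ratio 0.931). The first mAb-DXd/IMQ tumor was highest for Rfc3 (64.9 CPM, the others 51.2 to 52.5, ratio 0.902), for Lig1 (102.0 CPM, the others 77.9 to 80.3, ratio 0.9) and for Ccna2 (157.7 CPM, the others 115.2 to 119.1, ratio 0.909). Summed epidermis markers were highest in saline tumor 1 (21.9 CPM, the others 6.16 to 8.06, ratio 0.879) and in mAb-DXd/IMQ tumor 2 (74.3 CPM, the others 5.92 to 8.601, ratio 0.961). In these tumors Krt1 held 346 and 913 counts, against 0 to 4 elsewhere, and Flg 85 and 151, against 0. Krt10 in saline tumor 1 (388 counts) lay within the range of the other saline tumors (272 to 522). The cause was not tested.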

How the results depend on the processing

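The 1 replication gene past the thresholds, Orc1, was joined by Mcm10, for 2 genes, with upper quartile factors, no filter on low counts, a filter at a mean of 1 CPM and DESeq2, and the count was 0 with the replicate block, the gene length offset and both together, and 0 with any tumor left out. The number of genes above 0 was 35, between 32 and 36 in other fits and between 28 and 38 with a tumor left out, and their median log2 fold change stayed between 0.12 and 0.24. Over all genes, 197 became 358 with no filter, 787 with DESeq2, 122 with the length offset, 14 with the replicate block, 14 with both, and 10 to 203 with a tumor left out. In the other pathway lists, the count of 2 (Dctpp1 and Rb1) was 4 with upper quartile factors, 7 with DESeq2, 1 with the length offset (Cenpf, not either of these), 0 with limma voom, 0 with the replicate block, 0 with block and offset, and 0 to 2 with a tumor left out (Cenpf and Rb1 without saline tumor 1, Rnaseh2c without mAb-DXd/IMQ tumor 3). The causes were not tested.

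Same-numbered tumors did not deviate together (correlations -0.17, -0.055, 0.079 and -0.067), and not every tumor correlated best with its own number, so the number is no pairing; under the block, the 3 T cell calls and the 1 neutrophil call became 0, and Orc1 had a log2 fold change of 0.91 (edgeR, adjusted p = 0.0951; 0.000177 to 0.127 over all fits with 8 tumors). Rb1 and Dctpp1 also missed the threshold under the block (edgeR, adjusted p = 0.108 and 0.132).

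Signs turned for genes near 0: Mcm7 to 0.035 (upper quartile) and 0.017 (library size), Rpa1 to -0.0014 (limma trend) and -0.0019 (block), Rrm2 to -0.037 (length offset) and -0.043 (offset with block), Gins2 to -0.013 and E2f1 to -0.0013 (offset with block). With a tumor left out, the ranges were -0.031 to 0.17 for Mcm2, -0.11 to 0.089 for Mcm7, -0.16 to 0.14 for Gins2, -0.041 to 0.20 for Gins3, -0.21 to 0.015 for Pcna, -0.079 to 0.14 for Rfc3, -0.31 to 0.074 for Fen1, -0.060 to 0.17 for Lig1, -0.13 to 0.11 for Rpa1, -0.0024 to 0.22 for Rrm1 and -0.047 to 0.13 for Rrm2.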
